A study of Rattus norvegicus with 16 samples.

Results

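The genes described here are 10 components of the transforming growth factor beta (TGF-beta) pathway in sorted rat microglia, the resident macrophages of the brain. They were taken by symbol as Tgfb1 (the ligand), Nrros (presentation of the latent ligand), Tgfbr1 and Tgfbr2 (the receptors), Smad2, Smad3, Smad4 and Smad7 (the intracellular SMAD proteins), and Ski and Skil (SMAD co-repressors). All 10 symbols were found among the 21842 symbols of the count matrix, each on exactly 1 of 30560 Ensembl genes, and all 10 passed the filter on low counts. TGF-beta is secreted bound to a latency peptide, and in microglia the membrane protein NRROS tethers that latent complex. Freed ligand brings the type II receptor TGFBR2 together with the type I receptor TGFBR1, which phosphorylates SMAD2 and SMAD3, and these enter the nucleus with SMAD4. SMAD7 blocks the type I receptor, SKI and SKIL hold SMAD target genes repressed, and in mice the pathway is required for the mature microglial expression program.

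RNA was sequenced from microglia of whole brains of male Wistar (Hsd/Cpb:WU) rats, sorted for DAPI exclusion, high CD11b and intermediate CD45. The 4 groups were rats given 14 Gy of X-rays and lipopolysaccharide (LPS, a bacterial cell wall component), rats given 14 Gy and phosphate-buffered saline (PBS), sham-irradiated rats given LPS, and sham-irradiated rats given PBS. Injections were intraperitoneal and came 6 weeks after the irradiation or sham procedure, and each group held 4 samples (16 libraries). The labels give no age, no LPS dose and no interval between injection and sampling, and they do not name the animals, so p-values reflect only how these samples vary. Library totals were 18997145 to 62745496 counts in irradiated LPS, 14309458 to 25015047 counts in irradiated PBS, 16573558 to 19785105 counts in sham LPS and 16849603 to 22482126 counts in sham PBS libraries. Levels are CPM, read counts scaled to library size with TMM factors, differences are log2 fold changes ± SE from edgeR's quasi-likelihood fit of all 16 libraries, and a gene was called where its adjusted p over 13608 genes was under 0.05. Gene lengths were not used, so CPM values are compared between libraries and not between genes.

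All 10 microglial markers were in the count files. Their summed level was 14951 to 19305 CPM in irradiated LPS libraries, 19677 to 24414 CPM in irradiated PBS libraries, 33771 to 37954 CPM in sham LPS libraries and 39612 to 42961 CPM in sham PBS libraries, and Siglech was at 0 in all sham LPS libraries. In every library this sum was larger than that of any other marker list. Of the 10 microglial markers, 9 passed the filter on low counts. Irradiation lowered 6 of these with either injection and raised 1 with LPS. LPS lowered 6 in irradiated rats and 3 in sham rats and raised 0. Markers of other cells moved across the same groups. The 10 border-associated macrophage markers summed to 3106 to 4312 CPM in irradiated LPS, 1281 to 1629.8 CPM in irradiated PBS, 478 to 1059 CPM in sham LPS and 397 to 461 CPM in sham PBS libraries. Single markers of this list did not all follow the sum with LPS. Of the 9 tested, LPS raised 3 and lowered 3 in irradiated rats (median log2 fold change -0.28). In sham rats LPS raised 3 of them and lowered 1 (median 0.04). Irradiation raised 8 and lowered 0 with either injection. Monocyte markers (9 of 10 in the files) summed to 625 to 1026 CPM in irradiated LPS, 445 to 524 CPM in irradiated PBS, 291 to 405 CPM in sham LPS and 162 to 237 CPM in sham PBS libraries. These macrophage and monocyte sums were higher in irradiated than in sham libraries with either injection, without overlap. T and NK cell markers (10 of 12) summed to 515 to 1027 CPM in irradiated LPS, 95.0 to 186 CPM in irradiated PBS, 19.9 to 189.7 CPM in sham LPS and 13.3 to 22.4 CPM in sham PBS libraries. Neutrophil markers (10 of 10) summed to 155 to 2075 CPM in irradiated LPS, 18.5 to 113 CPM in irradiated PBS, 19.1 to 81.0 CPM in sham LPS and 10.1 to 45.2 CPM in sham PBS libraries. All 7 neutrophil markers tested were called higher in irradiated LPS libraries than in irradiated PBS and in sham LPS libraries, with library 1 of irradiated LPS highest, and Mpo was at 0 in every library. The irradiated libraries numbered 1 also held the highest neuron marker sums (98.7 CPM with LPS and 66.8 CPM with PBS). In bulk RNA, fewer cells of a type and less RNA per cell cannot be told apart, and the part of these other cells in the results that follow was not tested.

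Of the 10 genes, Tgfbr1 and Skil had the clearest differences between the groups, as the plot of fold changes shows. Irradiated rats given LPS, set against sham rats given LPS, had 6 members called lower (Tgfb1, Tgfbr1, Smad3, Smad7, Ski and Skil) and 0 called higher. Of all genes tested, 27.7% were called in that comparison, 12.6% lower and 15.1% higher. The median log2 fold change was -0.55 over the members and 0.01 over all genes. The members were chosen with earlier results of these data known, so their counts and medians are descriptions and no independent evidence. Irradiated rats given PBS, set against sham rats given PBS, had 2 members called lower (Tgfbr1 and Ski) and 0 higher, where 21.4% of all genes were called, 9.91% lower and 11.5% higher. The medians were -0.33 over the members and 0.00 over all genes. Scaled by library totals only, 76.3% of the called genes were higher in that comparison, against 53.7%, and 1 member was called. The count with LPS was 3 without irradiated LPS library 3 and 2 without both irradiated libraries numbered 1.

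LPS moved members in both directions. In irradiated rats 1 member was higher (Skil) and 3 were lower (Tgfbr1, Tgfbr2 and Smad7) with LPS than with PBS, where 31.4% of all genes were called, 17.0% higher and 14.5% lower. In sham rats 2 members were higher (Ski and Skil) and 1 was lower (Tgfbr1), where 29.6% of all genes were called, 15.2% higher and 14.5% lower. Both shares of members were near those of all genes, and the member medians (-0.06 in irradiated and -0.08 in sham rats) lay close to the medians of all genes (-0.02 and -0.01). The count in irradiated rats was 2 without irradiated LPS library 1 or irradiated PBS library 3, and the count in sham rats was 6 without sham LPS library 4. With library totals alone, 39.2% of the called genes were higher with LPS in irradiated rats, against 54.0%. Each group enters 2 of the 4 comparisons, so the comparisons are not independent of each other.

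**Figure D1:**
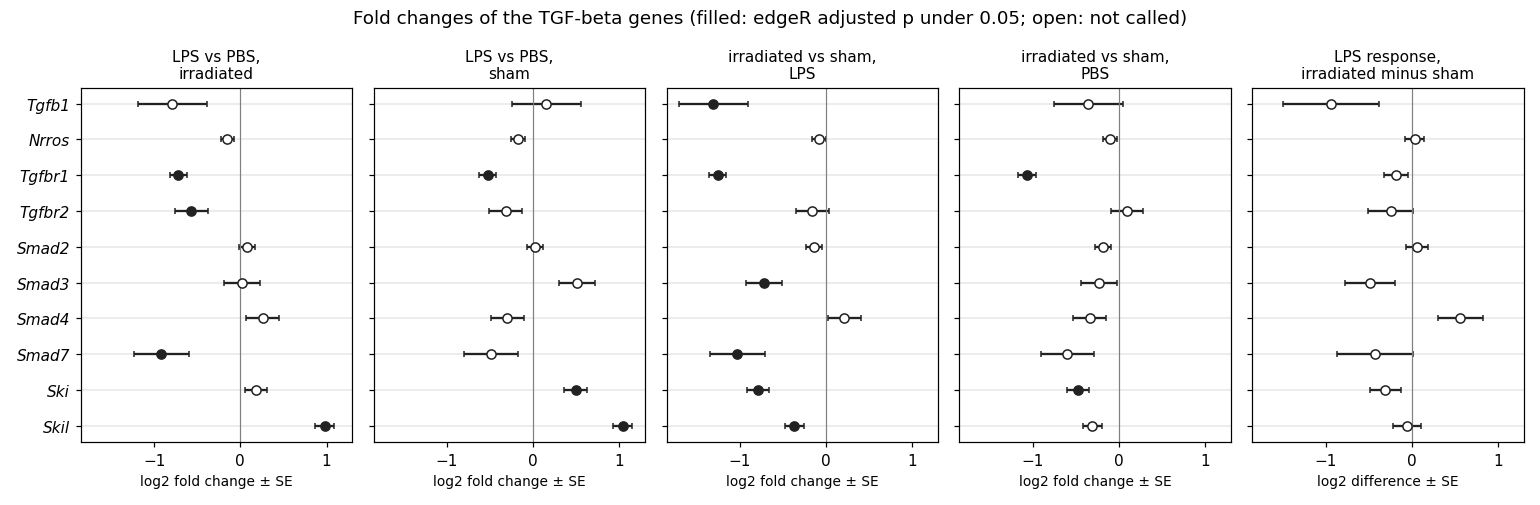
Log2 fold changes (x axis, ± SE, 4 libraries per group) of the 10 genes (rows) in 4 comparisons, and in the right panel the LPS response of irradiated rats minus that of sham rats. Filled points passed an edgeR adjusted p of 0.05; Tgfbr1 lies left of 0 in all 4 comparisons, Skil lies right of 0 in both LPS comparisons, and no point of the right panel is filled.

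Tgfb1, the gene of the ligand itself (ENSRNOG00000020652), was counted at very low levels in these libraries. The annotation release and strand setting are not given, so whether these counts take in all transcripts of Tgfb1 could not be checked, and its values are those of the counted reads only. It had 13 to 66 reads per library, with exact Poisson 95% intervals of 6.92 to 22.2 for the lowest count and 51.0 to 84.0 for the highest, which cover counting error only. Tgfb1 had 0.769, 1.07, 0.405 and 1.24 CPM in irradiated LPS libraries and 2.12, 2.1, 1.49 and 2.98 CPM in sham LPS libraries. The irradiated LPS libraries all lay below the sham LPS libraries. The log2 fold change was -1.31 ± 0.40 (edgeR adjusted p = 0.0211), with means of 0.87 ± 0.365 CPM in irradiated LPS and 2.17 ± 0.61 CPM in sham LPS libraries (SD, n = 4 each). With PBS, Tgfb1 had 1.68, 1.89, 1.15 and 1.35 CPM in irradiated libraries and 2.31, 2.09, 1.38 and 2.03 CPM in sham libraries, and these overlapped (-0.36 ± 0.40, edgeR adjusted p = 0.576). LPS gave no called difference in irradiated rats (-0.79 ± 0.40, edgeR adjusted p = 0.152) or in sham rats (0.15 ± 0.40, edgeR adjusted p = 0.811). The call with LPS was lost without irradiated LPS library 1 (edgeR adjusted p = 0.0501), irradiated LPS library 3 (0.0531) or sham LPS library 4 (0.0702), and without both irradiated libraries numbered 1 (0.0601). It was also lost when no filter on low counts was used (0.0522) or when only the 2 groups were fitted (0.0645).

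Nrros (ENSRNOG00000001752), which encodes the protein that anchors latent TGF-beta on microglia, varied little. It lay between 356 and 413 CPM in irradiated LPS libraries, 388 and 464 CPM in irradiated PBS libraries, 387 and 429.8 CPM in sham LPS libraries and 438 and 478 CPM in sham PBS libraries. In sham rats the LPS libraries all lay below the PBS libraries, yet the difference of -0.18 ± 0.08 did not pass (edgeR adjusted p = 0.0791). That value passed when libraries were scaled by their totals only (0.0165) and in limma voom (0.0491). The other 3 comparisons of Nrros gave -0.15 ± 0.08 for LPS in irradiated rats, -0.08 ± 0.08 for irradiation with LPS and -0.11 ± 0.08 for irradiation with PBS, with edgeR adjusted p values of 0.151, 0.494 and 0.33. With library totals alone, the LPS difference in irradiated rats passed (0.00455) and the sign of the irradiation difference with PBS turned.

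Tgfbr1 (ENSRNOG00000007036), the gene of the type I receptor kinase, was called lower in all 4 comparisons. It had 1013, 1356, 1076 and 1044 CPM in irradiated LPS libraries and 1613, 2181, 1768 and 1843 CPM in irradiated PBS libraries. Sham LPS libraries had 3037, 2577, 2487 and 2661 CPM, and sham PBS libraries had 3817, 4070.1, 3812 and 3849.9 CPM. No pair of groups overlapped, with irradiated LPS lowest, then irradiated PBS, then sham LPS, and sham PBS highest. Tgfbr1 fell by 1.26 ± 0.10 on the log2 scale with irradiation in rats given LPS (edgeR adjusted p = 7.29e-08) and by 1.07 ± 0.10 in rats given PBS (edgeR adjusted p = 6.48e-07). With LPS it fell by 0.72 ± 0.10 in irradiated rats (edgeR adjusted p = 2.72e-05) and by 0.53 ± 0.10 in sham rats (edgeR adjusted p = 0.000663). All 4 calls held in each of the 27 alternative analyses. The microglial marker sums fell in the same order of groups, although not every single marker did. The part of cell composition in the Tgfbr1 levels was not tested.

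Tgfbr2 (ENSRNOG00000013265), the gene of the type II receptor that binds the ligand first, was not called in either irradiation comparison. It had 97.2, 108, 128 and 82.0 CPM in irradiated LPS libraries and 142, 139.6, 181 and 151 CPM in irradiated PBS libraries. Sham LPS libraries had 89.8, 119, 93.7 and 161 CPM, and sham PBS libraries had 114, 127, 152 and 185 CPM. Irradiated and sham libraries overlapped with either injection, at -0.16 ± 0.19 with LPS (edgeR adjusted p = 0.585) and 0.09 ± 0.19 with PBS (edgeR adjusted p = 0.792). LPS lowered Tgfbr2 in irradiated rats, where the groups did not overlap (-0.57 ± 0.19, edgeR adjusted p = 0.0278), and in sham rats the difference did not pass (-0.32 ± 0.19, edgeR adjusted p = 0.217). The call was lost without irradiated LPS library 1 (edgeR adjusted p = 0.0677) or 4 (0.0927), without irradiated PBS library 3 (0.0898) or 4 (0.0501), without both irradiated libraries numbered 1 (0.0713) and with no filter on low counts (0.0512). Without sham LPS library 4, the highest of its group, the difference in sham rats passed (-0.52, edgeR adjusted p = 0.0319).

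The proportion of reads between the receptor genes was lower in every irradiated library than in every sham library. Within a library, Tgfbr1 had 11.0 ± 2.02 reads per Tgfbr2 read in irradiated LPS libraries and 12.2 ± 2.48 in irradiated PBS libraries. The ratio was 24.6 ± 7.36 in sham LPS libraries and 27.8 ± 5.91 in sham PBS libraries (SD, n = 4 each). Its highest value in any irradiated library was 15.6 and its lowest in any sham library was 16.5. This ratio depends on transcript length and counts reads, not proteins, and it was not tested separately.

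**Figure D2:**
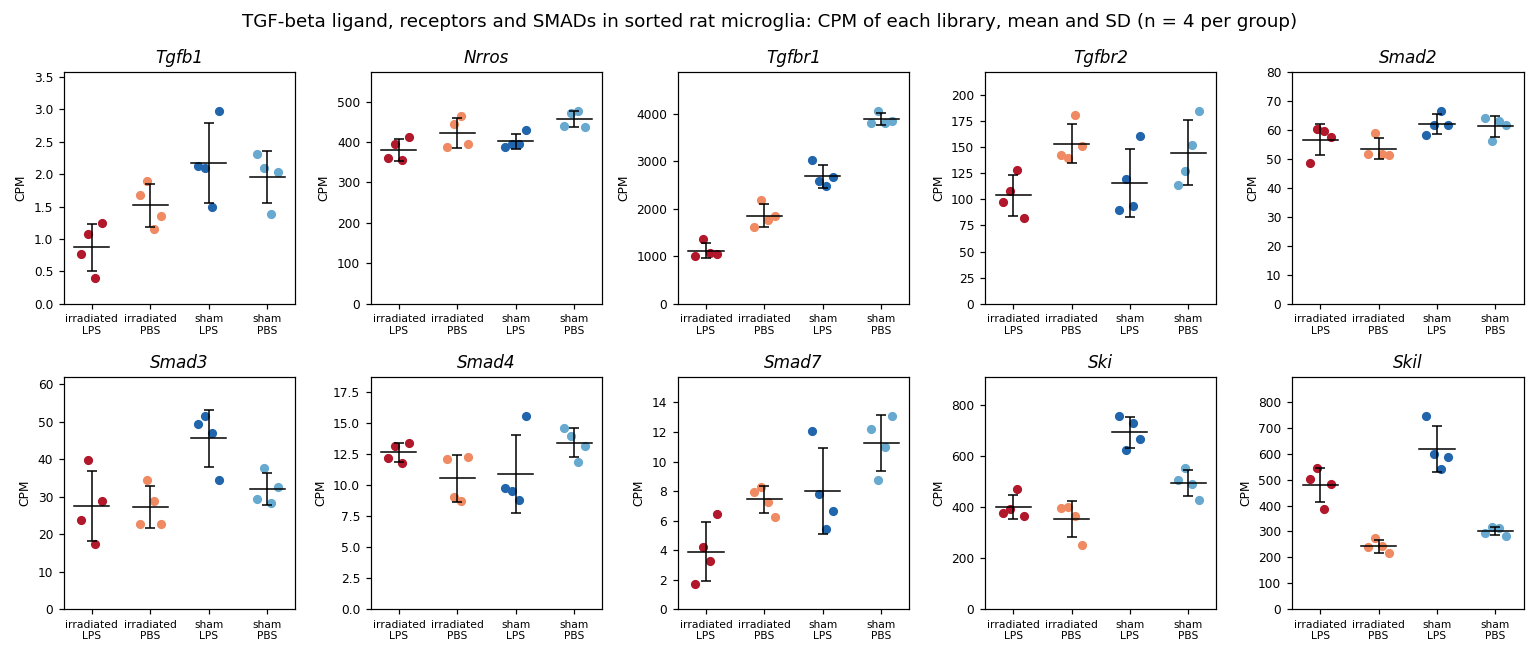
CPM of each library (points, y axes from 0) for the 10 genes, 1 panel per gene, with the mean and SD of the 4 libraries of a group. The 4 groups of Tgfbr1 do not overlap, Skil is higher in both LPS groups than in both PBS groups, and Tgfb1 stays under 3 CPM in every library.

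Of the receptor-activated SMADs, Smad2 was called in no comparison and Smad3 in 1. Smad2 (ENSRNOG00000018140) lay between 48.8 and 60.3 CPM in irradiated LPS libraries, 51.6 and 59.2 CPM in irradiated PBS libraries, 58.4 and 66.8 CPM in sham LPS libraries and 56.1 and 64.2 CPM in sham PBS libraries. No comparison of Smad2 was called, with log2 fold changes from -0.19 ± 0.09 (irradiation with PBS, edgeR adjusted p = 0.144) to 0.08 ± 0.09 (LPS in irradiated rats, edgeR adjusted p = 0.555). The signs of its small LPS differences turned with library totals alone.

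Smad3 (ENSRNOG00000008620) was highest in sham rats given LPS. It had 23.9, 39.8, 17.4 and 28.9 CPM in irradiated LPS libraries and 49.3, 51.6, 46.9 and 34.4 CPM in sham LPS libraries. Irradiated LPS library 2 lay above sham LPS library 4, so the groups overlapped. Smad3 fell by 0.72 ± 0.21 on the log2 scale with irradiation in rats given LPS (edgeR adjusted p = 0.0145), and the call was lost only without both irradiated libraries numbered 1 (0.0611) among the 27 alternatives. With PBS it had 22.6, 34.5, 28.9 and 22.8 CPM in irradiated libraries and 29.4, 37.7, 28.2 and 32.5 CPM in sham libraries, which overlapped (-0.23 ± 0.21, edgeR adjusted p = 0.483). The LPS difference was 0.02 ± 0.21 in irradiated rats (edgeR adjusted p = 0.954) and 0.51 ± 0.21 in sham rats (edgeR adjusted p = 0.0744). In sham rats it passed in 6 alternatives, among them the fits without sham LPS library 4 (0.62, edgeR adjusted p = 0.0428), without irradiated LPS library 2 (0.0458) and without irradiated LPS library 3 (0.0391). Per Smad2 read, Smad3 had 0.486 ± 0.151 reads in irradiated LPS, 0.504 ± 0.076 in irradiated PBS, 0.734 ± 0.135 in sham LPS and 0.525 ± 0.104 in sham PBS libraries (SD, n = 4 each).

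Smad4 (ENSRNOG00000051965), the common partner of the phosphorylated SMADs, showed no called difference. It lay between 11.8 and 13.4 CPM in irradiated LPS, 8.75 and 12.3 CPM in irradiated PBS, 8.77 and 15.6 CPM in sham LPS and 11.9 and 14.6 CPM in sham PBS libraries. In sham rats 3 of the 4 LPS libraries (9.77, 9.5 and 8.77 CPM) lay below all PBS libraries and LPS library 4 lay above them. Without that library the LPS difference in sham rats was -0.52 (edgeR adjusted p = 0.0298), against -0.30 ± 0.19 with all libraries (edgeR adjusted p = 0.258). The LPS difference in irradiated rats was 0.26 ± 0.19 (edgeR adjusted p = 0.32).

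Under LPS the co-repressor gene Skil was called higher in irradiated and in sham rats, and the gene of the feedback inhibitor SMAD7 was called lower in irradiated rats. Skil (ENSRNOG00000009899) encodes SnoN, which binds SMADs at their target genes and is itself a target that TGF-beta induces. It had 501, 546, 386 and 485 CPM in irradiated LPS libraries and 238, 276, 243 and 215 CPM in irradiated PBS libraries, and the groups did not overlap. Skil rose by 0.98 ± 0.11 on the log2 scale with LPS in irradiated rats (1.97-fold, edgeR adjusted p = 2.94e-06). In sham rats it had 747, 601, 540.1 and 586 CPM with LPS and 294, 316, 313 and 283 CPM with PBS, again without overlap (1.04 ± 0.11, 2.05-fold, edgeR adjusted p = 2.21e-06). Both LPS calls held in all 27 alternatives.

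The irradiation differences of Skil were smaller than its LPS differences. In rats given LPS, Skil fell with irradiation by 0.37 ± 0.11 on the log2 scale (edgeR adjusted p = 0.0193), with irradiated LPS library 2 above sham LPS library 3. With PBS the irradiated libraries all lay below the sham libraries and the difference narrowly missed (-0.31 ± 0.11, edgeR adjusted p = 0.0559). The call with LPS was lost without sham LPS library 1 (0.0832) or irradiated LPS library 3 (0.0668), without both irradiated libraries numbered 1 (0.0531), with library totals alone (0.0739) and with only the 2 groups fitted (0.0619). The Skil difference with PBS passed in 9 alternatives (adjusted p from 0.0242 to 0.0499), among them the fits without irradiated PBS library 2 (0.0319), sham LPS library 1 (0.0328) or 3 (0.0493), and irradiated LPS library 2 (0.0442) or 3 (0.0309).

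Ski (ENSRNOG00000055340), the paralogue that gives the co-repressor family its name, rose with LPS in sham rats. It had 756, 621, 726 and 665 CPM in sham LPS libraries and 506, 551, 488 and 427 CPM in sham PBS libraries, which did not overlap (0.49 ± 0.13, edgeR adjusted p = 0.00703). In irradiated rats it had 376, 390, 469 and 365 CPM with LPS and 395, 399, 364 and 252 CPM with PBS, which overlapped (0.18 ± 0.13, edgeR adjusted p = 0.306). Irradiated libraries lay below sham libraries with either injection, without overlap. Ski fell by 0.79 ± 0.13 on the log2 scale with irradiation in rats given LPS (edgeR adjusted p = 0.000125) and by 0.48 ± 0.13 in rats given PBS (edgeR adjusted p = 0.00994). The call with PBS was lost with scaling by totals only (-0.33, edgeR adjusted p = 0.0733), a scaling that shifted the median of all genes in that comparison by 0.156 on the log2 scale.

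Smad7 (ENSRNOG00000018359), the inhibitory SMAD and a classical feedback target of the pathway, was counted at 33 to 264 reads per library. It had 1.69, 4.19, 3.27 and 6.42 CPM in irradiated LPS libraries and 7.96, 8.27, 7.26 and 6.23 CPM in irradiated PBS libraries. Sham LPS libraries had 12.1, 7.79, 5.45 and 6.67 CPM, and sham PBS libraries had 12.2, 8.72, 11.0 and 13.1 CPM. Irradiated LPS libraries were the lowest as a group, and they overlapped irradiated PBS and sham LPS libraries through library 4. Smad7 fell by 0.92 ± 0.32 on the log2 scale with LPS in irradiated rats (edgeR adjusted p = 0.0336) and by 1.03 ± 0.32 with irradiation in rats given LPS (edgeR adjusted p = 0.0211). The LPS difference in sham rats was -0.49 ± 0.31 (edgeR adjusted p = 0.266). With PBS the irradiated libraries all lay below the sham libraries, at -0.60 ± 0.31 (edgeR adjusted p = 0.202).

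Both Smad7 calls depended on single libraries. The LPS call in irradiated rats was lost without irradiated LPS library 1 (edgeR adjusted p = 0.0842), 2 (0.0571) or 3 (0.0835), without irradiated PBS library 1 (0.0675), 2 (0.0777) or 3 (0.0585), and with both libraries numbered 1 left out (0.149). The irradiation call with LPS was lost without sham LPS library 1 (0.097), irradiated LPS library 1 (0.0541) or irradiated LPS library 3 (0.0549), and without both irradiated libraries numbered 1 (0.0702). With only the compared groups fitted, these values for Smad7 were 0.0662 and 0.0804, and the irradiation difference with PBS passed (0.0467).

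The balance of reads between these inhibitors changed with LPS in both irradiated and sham rats. Skil had 155 ± 97.0 reads per Smad7 read in irradiated LPS libraries (75.6 to 296) and 32.8 ± 2.01 in irradiated PBS libraries. In sham rats the ratio was 81.4 ± 16.0 with LPS (61.6 to 99.2) and 27.7 ± 6.4 with PBS. The lowest LPS library, at 61.6, lay above the highest PBS library, at 36.3. Per Ski read, Skil had 1.22 ± 0.268 reads in irradiated LPS, 0.704 ± 0.106 in irradiated PBS, 0.895 ± 0.111 in sham LPS and 0.614 ± 0.0442 in sham PBS libraries. Irradiated LPS library 3, at 0.822, fell within the range of irradiated PBS libraries (0.603 to 0.852). These ratios are descriptions without a test.

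**Figure D3:**
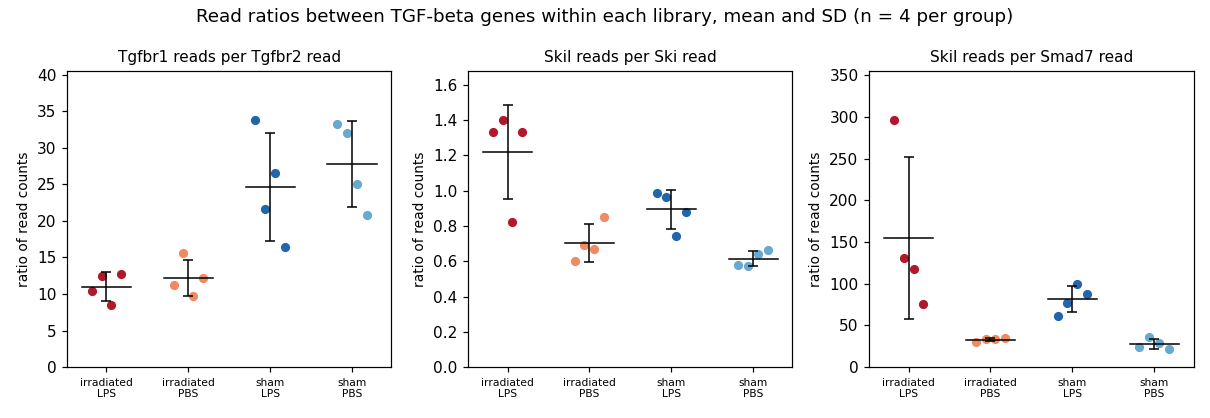
Ratios of read counts within each library (points, y axes from 0) with mean and SD of the 4 libraries of a group. Tgfbr1 reads per Tgfbr2 read are lower in irradiated libraries (at most 15.6) than in sham libraries (at least 16.5), and Skil reads per Smad7 read are higher in LPS libraries (at least 61.6) than in PBS libraries (at most 36.3).

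The 250 bases before the annotated start of Skil, Ski and Smad7 are shown because Skil rose with LPS in irradiated and sham rats, Ski rose with it in sham rats and Smad7 fell with it in irradiated rats. They were taken from RefSeq on GRCr8, a later build than the one behind the counts, and read 5′ to 3′ on the strand of the gene: Skil at chr2:114203573-114203822, minus strand, Ski at chr5:171064958-171065207, minus strand, and Smad7 at chr18:71263258-71263507, plus strand. Capitals mark a cAMP response element (CRE, TGACGTCA).
Skil: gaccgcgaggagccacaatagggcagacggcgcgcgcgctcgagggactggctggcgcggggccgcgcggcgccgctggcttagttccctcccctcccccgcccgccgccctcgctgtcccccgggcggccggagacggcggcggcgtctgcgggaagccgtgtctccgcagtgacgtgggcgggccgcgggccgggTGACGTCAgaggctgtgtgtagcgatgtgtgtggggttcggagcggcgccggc
Ski: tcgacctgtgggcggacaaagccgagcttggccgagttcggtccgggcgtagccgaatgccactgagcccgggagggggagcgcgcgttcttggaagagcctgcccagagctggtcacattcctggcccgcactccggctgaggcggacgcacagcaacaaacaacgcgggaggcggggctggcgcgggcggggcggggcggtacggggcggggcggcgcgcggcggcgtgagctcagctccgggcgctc
Smad7: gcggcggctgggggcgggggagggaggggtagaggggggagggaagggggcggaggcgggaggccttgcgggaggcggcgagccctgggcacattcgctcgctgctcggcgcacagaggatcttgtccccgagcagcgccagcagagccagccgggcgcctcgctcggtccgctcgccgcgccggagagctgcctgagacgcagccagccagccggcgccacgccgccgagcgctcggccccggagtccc
In windows of 300 bases (the 250 upstream bases and the first 50 from the start), searched on both strands, the CRE stood 53 bases before the start in Skil and in no window of the other 9 genes. Of all 33469 RefSeq promoter windows, 1.83% held it. The SMAD palindrome GTCTAGAC (0.197% of all windows), the AP-1 motif TGAGTCA or its reverse complement TGACTCA (4.63%), the kB motifs GGGACTTTC (0.326%) and GGGAATTTC (0.296%) and the ETS/PU.1 motif GAGGAAGT (2.42%) were in no window of the 10 genes, and the CRE overlapped none of them. These matches describe letters in short windows and carry no information on binding.

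The difference between the LPS responses of irradiated and sham rats was called for 0 of the 10 genes in edgeR, where 1.26% of all genes were called (48.5% of them higher, and 28.0% with library totals alone). At an unadjusted p under 0.05 there was 1 member, Smad4 (0.56 ± 0.26, unadjusted 0.0491, edgeR adjusted p = 0.414). DESeq2 and limma voom also called 0. The differences were -0.94 ± 0.56 for Tgfb1, -0.49 ± 0.29 for Smad3, -0.43 ± 0.44 for Smad7, -0.31 ± 0.18 for Ski, -0.25 ± 0.26 for Tgfbr2, -0.19 ± 0.14 for Tgfbr1 and -0.06 ± 0.16 for Skil. The smaller LPS difference of Ski in irradiated rats, and the Tgfbr2 and Smad7 calls made in irradiated but not in sham rats, are therefore not shown to differ between irradiated and sham rats.

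Genes with the closest patterns were ranked by the root mean square difference between the 4 group means of log2 CPM, each gene centred on its own mean, among 7954 genes over the 16 libraries. For Tgfbr1 these were Jup (0.0507), Sall1 (0.0544) and P4ha1 (0.0549). Sall1, which encodes a microglial transcription factor, had 109 ± 14.5 CPM in irradiated LPS, 177 ± 10.2 CPM in irradiated PBS, 284 ± 35.0 CPM in sham LPS and 374 ± 11.8 CPM in sham PBS libraries (SD, n = 4 each). The closest patterns to Skil were Bag5 (0.0448) and Rbm18 (0.0518), and those to Ski were Smarcd2 (0.0201), Hectd2 (0.0317) and Bmp2k (0.0464). Smad7 lay closest to Prkcq (0.0164), and Tgfb1 to Rtn1 (0.0485).

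The wider pathway was described from lists written from general knowledge. Of 18 other ligands, latency proteins and activators, 14 were tested. LPS raised 3 and lowered 2 in irradiated rats, and raised 3 and lowered 2 in sham rats. Irradiation raised 3 and lowered 4 with LPS and raised 2 and lowered 0 with PBS. The list medians were -0.20 for LPS in irradiated rats, 0.26 for LPS in sham rats, -0.55 for irradiation with LPS and 0.11 for irradiation with PBS. Of all genes, 31.4%, 29.6%, 27.7% and 21.4% were called in these comparisons, in the same order. The medians of all genes lay between -0.02 and 0.01. The 7 irradiation calls with LPS were 4 without irradiated LPS library 1 or 4. The 2 calls with PBS (Thbs1 and Tgfb2) were 0 without irradiated PBS library 1, without sham PBS library 2, 3 or 4, and without both irradiated libraries numbered 1. Itgav, which encodes the alpha V integrin subunit of the receptors that free TGF-beta from its latency peptide, had 134, 142, 145 and 133 CPM in irradiated LPS libraries and 154, 179, 156 and 172 CPM in irradiated PBS libraries. In sham rats it had 273, 334, 304 and 204 CPM with LPS and 152, 158, 171 and 151 CPM with PBS. LPS raised Itgav in sham rats by 0.82 ± 0.11 (edgeR adjusted p = 2.96e-05), and in irradiated rats the difference was -0.25 ± 0.11 (edgeR adjusted p = 0.096). The difference between these responses was called in edgeR (-1.07 ± 0.16, adjusted p = 0.00199) and held in all 27 alternatives.

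Thbs1, which encodes thrombospondin-1, an activator of latent TGF-beta, had few reads in rats given PBS. It had 5287, 6501, 4855 and 11873 reads in irradiated LPS libraries and 77, 7, 2 and 124 reads in irradiated PBS libraries. Sham LPS libraries had 338, 1378, 567 and 1698 reads, and sham PBS libraries had 0, 2, 0 and 0 reads. Thbs1 was called higher with LPS in irradiated rats (6.41 ± 0.85, edgeR adjusted p = 7.38e-05) and in sham rats (edgeR adjusted p = 7.46e-05; 0.0507 in limma voom). It was also called higher with irradiation in rats given LPS (1.92 ± 0.67, edgeR adjusted p = 0.0472) and in rats given PBS (edgeR adjusted p = 0.027). The Thbs1 call with LPS was lost in 13 alternatives (adjusted p from 0.056 to 0.133), among them DESeq2 (0.133) and the fits without irradiated LPS library 1, 3 or 4, sham LPS library 1, 2 or 3, or any sham PBS library. The call with PBS was lost in 8 (adjusted p from 0.065 to 0.451), among them limma voom (0.451) and the fits without irradiated PBS library 1 or 4 or any sham PBS library. Mmp14, a membrane metalloproteinase gene, rose with LPS by 3.38 ± 0.61 in irradiated rats (edgeR adjusted p = 0.000395) and by 3.60 ± 0.68 in sham rats (edgeR adjusted p = 0.000693). Its baseline was also low, with 44, 8, 27 and 9 reads in irradiated PBS libraries and 11, 4, 2 and 6 reads in sham PBS libraries.

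Of 12 co-receptors and receptors of the wider family, 9 were tested. Irradiation lowered 5 with LPS and 2 with PBS and raised none, with list medians of -0.70 and -0.30 against 0.01 and 0.00 over all genes. Of all genes, 27.7% were called with LPS (12.6% lower) and 21.4% with PBS (9.91% lower). The 5 calls with LPS were 3 without sham LPS library 1 or 2, and of the 2 with PBS (Eng and Bmpr1a) Bmpr1a was lost in 11 alternatives, 7 of which left out 1 library of the PBS groups. Eng, which encodes the co-receptor endoglin and is also an endothelial gene, had 87.9, 114, 139 and 139.5 CPM in irradiated LPS libraries and 228, 272, 261 and 215 CPM in sham LPS libraries (-1.02 ± 0.13, edgeR adjusted p = 1.3e-05). With PBS it had 109, 151, 137 and 143 CPM in irradiated libraries and 299, 295, 260.4 and 295 CPM in sham libraries (-1.09 ± 0.13, edgeR adjusted p = 1.05e-05). The summed endothelial and mural cell markers (8 of 10 in the files) moved with it, at 134 to 212 CPM in irradiated LPS, 149 to 194 CPM in irradiated PBS, 309 to 347 CPM in sham LPS and 337 to 419 CPM in sham PBS libraries. Of the 5 such markers tested, irradiation lowered 3 and raised 1 with LPS, and lowered 3 and raised 0 with PBS. The part of these cells in the Eng level was not tested. Of the receptor list, LPS raised 1 and lowered 1 in irradiated rats and raised 3 and lowered 0 in sham rats, where 31.4% and 29.6% of all genes were called. Acvr1b, the activin type I receptor gene, whose product also acts on SMAD2 and SMAD3, rose by 1.73 ± 0.25 with LPS in irradiated rats (edgeR adjusted p = 3.52e-05) and by 1.67 ± 0.25 in sham rats (edgeR adjusted p = 7.16e-05).

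Of 25 other SMADs and SMAD regulators, 22 were tested, and irradiation lowered 7 and raised 1 with LPS and lowered 4 and raised 0 with PBS (2 lower without sham PBS library 1). In either direction, 8 of 22 and 4 of 22 were called, beside 27.7% and 21.4% of all genes in these comparisons. Most of these calls were lower. Of all genes, 12.6% were called lower and 15.1% higher with LPS, and 9.91% lower and 11.5% higher with PBS. The list median was -0.10 in both. Ldlrad4, which encodes a membrane protein that keeps SMAD2 and SMAD3 from the receptor, fell by 0.93 ± 0.15 on the log2 scale with irradiation in rats given LPS (edgeR adjusted p = 0.00015) and by 0.93 ± 0.15 in rats given PBS (edgeR adjusted p = 0.000218). Nedd4l, a ubiquitin ligase gene, fell by 0.95 ± 0.19 with LPS (edgeR adjusted p = 0.00112) and by 1.23 ± 0.19 with PBS (edgeR adjusted p = 0.000162). LPS raised 5 and lowered 3 of this list in irradiated rats and raised 6 and lowered 2 in sham rats, with medians of 0.09 and 0.13, against 31.4% and 29.6% of all genes called. Hdac1, a histone deacetylase gene, rose by 0.65 ± 0.08 in irradiated rats (edgeR adjusted p = 1.08e-05) and by 0.47 ± 0.08 in sham rats (edgeR adjusted p = 0.000386). Of 16 activin and BMP ligands and ligand traps only 5 were tested. Among these, Grem1, a BMP antagonist gene, fell by 2.04 ± 0.36 with irradiation in rats given LPS (edgeR adjusted p = 0.00029) and by 1.78 ± 0.36 in rats given PBS (edgeR adjusted p = 0.00147).

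Genes that TGF-beta family signals induce at once in many cell types did not move as a block with irradiation. With LPS, more of them were called higher than lower. Of 15 such genes 13 were tested. The list repeats Tgif1, Pmepa1, Ldlrad4 and Smurf1 from the SMAD regulators and Bambi from the receptors, so these lists are not separate. Irradiation raised 4 and lowered 6 with LPS (list median -0.22) and raised 3 and lowered 2 with PBS (0.36). LPS raised 5 and lowered 2 in irradiated rats (0.55) and raised 8 and lowered 1 in sham rats (0.77). Of all genes, 27.7% were called for irradiation with LPS and 21.4% for irradiation with PBS. For LPS, 31.4% were called in irradiated rats (17.0% higher) and 29.6% in sham rats (15.2% higher). The medians of all genes lay between -0.02 and 0.01. Tgfbi, which encodes a secreted matrix protein, had 83.7, 55.6, 77.7 and 70.5 CPM in irradiated LPS libraries and 6.07, 16.6, 14.4 and 11.6 CPM in sham LPS libraries (2.56 ± 0.27, edgeR adjusted p = 1.85e-06). With PBS it had 47.8, 50.3, 59.3 and 39.5 CPM in irradiated libraries and 6.81, 7.77, 13.8 and 11.1 CPM in sham libraries (2.31 ± 0.27, edgeR adjusted p = 8.52e-06). Its irradiated libraries all lay above its sham libraries, as did the summed markers of border-associated macrophages and monocytes, whose part in the Tgfbi level was not tested. The transcriptional inhibitor gene Id1 fell with irradiation by 1.18 ± 0.32 in rats given LPS (edgeR adjusted p = 0.0126; 0.0573 with only these groups fitted) and by 1.40 ± 0.35 in rats given PBS (edgeR adjusted p = 0.00913; 0.109 in limma voom). Id3, of the same list, went the other way. Irradiation raised it by 2.68 in rats given LPS (edgeR adjusted p = 0.000274) and by 2.35 in rats given PBS (edgeR adjusted p = 0.00239). Both Id3 calls held in all 27 alternatives, and sham PBS libraries had few Id3 reads (8, 19, 8 and 5). With LPS, Id1 rose by 3.75 ± 0.36 in irradiated rats (edgeR adjusted p = 2.13e-06) and by 3.52 ± 0.35 in sham rats (edgeR adjusted p = 3.95e-06).

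Klf10, a transcription factor gene first described as TGF-beta-inducible, had a smaller LPS response in irradiated rats. It had 51.8, 58.6, 51.5 and 73.0 CPM in irradiated LPS libraries and 29.3, 21.3, 44.8 and 42.5 CPM in irradiated PBS libraries. In sham rats it had 114, 129.7, 124 and 177 CPM with LPS and 22.8, 24.0, 26.6 and 33.9 CPM with PBS. LPS raised Klf10 by 0.77 ± 0.21 in irradiated rats (edgeR adjusted p = 0.00967) and by 2.34 ± 0.22 in sham rats (edgeR adjusted p = 6.27e-07). The difference of -1.58 ± 0.30 was called in edgeR (adjusted p = 0.0127) and held in all 27 alternatives. Spsb1, a ubiquitin ligase adaptor gene, rose with LPS by 1.96 ± 0.14 in irradiated rats (edgeR adjusted p = 1.57e-08) and by 1.55 ± 0.14 in sham rats (edgeR adjusted p = 3.17e-07).

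Microglial genes that need TGF-beta in mice were mostly lower after irradiation, as Tgfbr1 was. The list held 21 symbols, with Gpr56 and Adgrg1 as names of the same gene, and 18 were tested. Irradiation lowered 14 and raised 0 with LPS, and lowered 13 and raised 1 with PBS, with list medians of -1.22 and -0.97 against 0.01 and 0.00 over all genes. Of all genes, 27.7% were called with LPS (12.6% lower) and 21.4% with PBS (9.91% lower). Both counts of the list were 14 or 15 called genes in all 27 alternatives. The list shares 8 of its 21 symbols with the 10 microglial markers and was written with results of these data known, so its direction is no independent evidence. P2ry13, a purinergic receptor gene, had 476, 523, 485 and 526 CPM in irradiated LPS libraries and 1648, 1363, 1343 and 1555 CPM in sham LPS libraries (-1.55 ± 0.11, edgeR adjusted p = 1.17e-08). Gpr34, a lysophospholipid receptor gene, had 721, 1004, 814 and 607 CPM in irradiated LPS libraries and 2087, 2072, 2214 and 2510.2 CPM in sham LPS libraries (-1.50 ± 0.14, edgeR adjusted p = 3.31e-07). Csf1r, the gene of the receptor that microglia need to survive, fell by 0.78 ± 0.07 with irradiation in rats given LPS (edgeR adjusted p = 2.09e-07) and by 0.80 ± 0.07 in rats given PBS (edgeR adjusted p = 2.71e-07). Gas6, which encodes a ligand for phagocytic receptors, was the gene that rose with irradiation in rats given PBS (0.80 ± 0.14, edgeR adjusted p = 0.000523), at 425, 422, 532 and 432 CPM in irradiated libraries and 187, 278, 286 and 286 CPM in sham libraries.

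Under LPS the same list divided. In irradiated rats 9 genes fell and 1 rose (median -0.47), and in sham rats 6 fell and 5 rose (median -0.09). Of all genes, 31.4% were called in irradiated and 29.6% in sham rats, 14.5% lower in each, with medians of -0.02 and -0.01. Without both irradiated libraries numbered 1, 9 genes of the list fell and 3 rose in irradiated rats. Gpr34 fell by 1.73 ± 0.14 in irradiated rats (edgeR adjusted p = 5.97e-08) and by 1.31 ± 0.14 in sham rats (edgeR adjusted p = 1.65e-06). The complement gene C1qb rose by 0.42 ± 0.08 in irradiated rats (edgeR adjusted p = 0.000717) and by 0.50 ± 0.08 in sham rats (edgeR adjusted p = 0.000202). Mef2a, a transcription factor gene, rose in sham rats (0.88 ± 0.18, edgeR adjusted p = 0.00146), and in irradiated rats the difference was -0.26 ± 0.18 (edgeR adjusted p = 0.302).

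**Figure D4:**
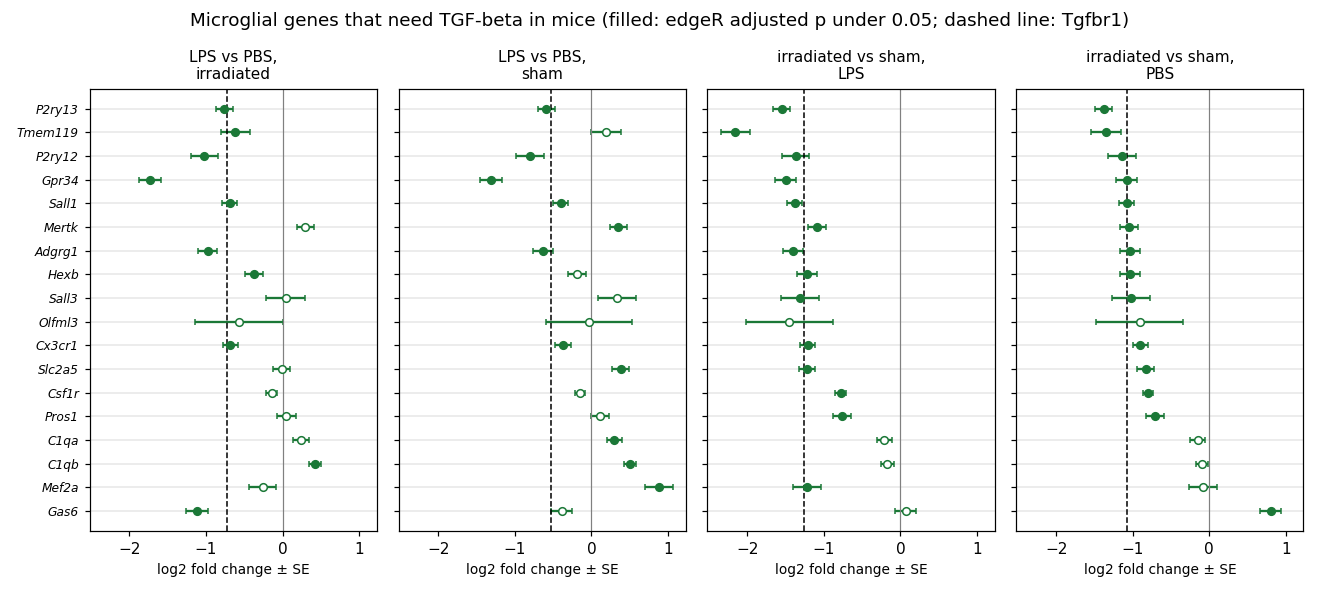
Log2 fold changes (x axis, ± SE, 4 libraries per group) of the 18 tested microglial genes that need TGF-beta in mice, with the fold change of Tgfbr1 as a dashed line in each panel. Filled points passed an edgeR adjusted p of 0.05; 14 genes lie left of 0 and filled with LPS and 13 with PBS in the irradiation panels, whereas the LPS panels hold genes on both sides of 0.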

How the data were processed

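RNA sequencing libraries of sorted microglia were analysed from raw read counts per Ensembl gene as the authors deposited them. Build mRatBN7.2 and the tools fastp 0.23.2, FastQC 0.11.9 and HTSeq 2.0.2 are named in the submitters' processing notes. Which aligner, annotation release and strand setting were used is not given here, so reads of overlapping genes or paralogues (such as Ski and Skil) may have been assigned in ways that cannot be checked. The deposited matrix by symbol matched the sums of the single count files in all but 0 of 349472 cells, and every replicate pair differed by more than sampling noise.

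Counts of 30560 genes were filtered with filterByExpr, scaled with TMM factors and fitted in R 4.3.3 with edgeR 4.0.16 (robust quasi-likelihood, 1 coefficient per group, 16 libraries, 13608 genes). The common biological coefficient of variation was 0.289. P-values were adjusted by Benjamini-Hochberg over all genes tested, the SE is the log2 fold change divided by the square root of F, and log2 CPM used a prior count of 2. The members and the gene lists were chosen with earlier results of these data known. From each list up to 4 called genes with the smallest p in a comparison could be named, at a mean log2 CPM of at least 0. Similar patterns were searched among genes with a symbol and a mean log2 CPM of at least 3.

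Alternatives were DESeq2 1.42.0, limma 3.58.1 voom with sample weights, library totals alone, RLE factors, no filter or a stricter one (at least 1 CPM in 8 libraries), no robust moderation, only the groups compared, a replicate block, counts summed by symbol, each library left out, and both irradiated libraries numbered 1 left out. The fit was also run on counts simulated with its own estimates of the spread, so that run could not test those estimates. Promoter sequences came from a RefSeq table on GRCr8.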

Additional observations from a re-analysis of the deposited data

Results flagged for a closer look

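Of 40 groups of 4 libraries looked at for the 10 genes, 3 held a library far from the other 3, where chance alone gives about 1 in 20. Tgfbr1 had 4070.1 CPM in sham PBS library 2, the highest of that group. Smad2 had 59.2 CPM in irradiated PBS library 2. Smad4 had 15.6 CPM in sham LPS library 4, and the LPS difference of Smad4 in sham rats passed the test without it.

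The LPS response differed between irradiated and sham rats (edgeR interaction) for 3 of the 49 genes named by the rules. The rules also named genes by their calls in this same interaction, and Mef2a was named through it alone. The count is therefore a description and no evidence on the lists. Of all genes, 1.26% were called. For Itgav the difference between the responses was -1.07 on the log2 scale, and for Klf10 it was -1.58; both held in all 27 alternatives. For Mef2a it was -1.14 ± 0.25 (edgeR adjusted p = 0.0369), a call lost in 13 alternatives. These were the fits with no filter on low counts (0.0808), with both irradiated libraries numbered 1 left out (0.056), and without sham PBS library 1 (0.0574), 2 (0.0602) or 3 (0.0732), sham LPS library 3 (0.0569) or 4 (0.067), irradiated PBS library 2 (0.052), 3 (0.0851) or 4 (0.0776), or irradiated LPS library 1 (0.0681), 2 (0.0708) or 4 (0.078).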

How the results depend on the processing

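Of 50 results for the 10 genes (5 comparisons each), 36 kept their call in all 27 alternatives, 7 lost a call and 7 gained one in at least 1 alternative, and 0 called results reversed. Of the 36, 26 also kept their sign and 10, none of them called, turned sign in at least 1 alternative. The count of members called was 5 in limma voom for LPS in sham rats (3 in the main analysis) and 3 to 6 with single libraries left out. For LPS in irradiated rats it was 2 without both irradiated libraries numbered 1 (4 in the main analysis) and 2 to 4 with single libraries left out. For irradiation with PBS it was 1 with library totals alone and 4 with only the groups compared (2 in the main analysis), and 2 to 3 with single libraries left out. For irradiation with LPS it was 3 with only the groups compared and 2 without both irradiated libraries numbered 1 (6 in the main analysis), and 3 to 6 with single libraries left out. For the difference between LPS responses it was 0 throughout. The number of all genes called for that difference was 171, with 439 in DESeq2, 98 without both irradiated libraries numbered 1 and 103 to 191 with single libraries left out, and it stayed within 1.5 times for the other 4 comparisons. Apart from fits with fewer libraries, the cause of these changes was not tested. Of 195 results for the 39 other named genes, 156 kept their call in all alternatives, of which 31 uncalled ones turned sign in at least 1.

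Libraries of the same number correlated between -0.048 and 0.23 in their deviations from the group means. Only 12 of 24 pairs were over 0.1 and the labels name no shared batch, so the numbers were not treated as pairs. As a hint of a shared effect from the data, 9 of 16 libraries correlated best with a library of their own number, which 3 of the 12 libraries of other groups carry. With the replicate block, 4168, 4446, 3038, 3875 and 221 genes and 4, 4, 3, 6 and 0 members were called for LPS in sham rats, LPS in irradiated rats, irradiation with PBS, irradiation with LPS and the difference between LPS responses. The block made 2 results of the members pass, Smad3 for LPS in sham rats (adjusted p = 0.0301) and Skil for irradiation with PBS (adjusted p = 0.0316). Low counts limit Tgfb1 and Smad7, with as few as 13 and 33 reads in a library.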
